A study of Mus musculus with 2 samples.

Results

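Nucleolar ribosome biogenesis genes encode the factors that process ribosomal RNA and assemble it with ribosomal proteins. They were chosen here by gene name alone: Ncl, Npm1, Npm3, Fbl, Dkc1, Gar1, Nhp2, Nip7, Bop1, Pes1, Rrs1, Nob1, Bysl, Imp3, Imp4, every name made of Nop, Nol, Utp or Rrp followed by a digit, and every name that begins with Gnl2 or Gnl3. Of 8262 named genes listed in either library, 50 were members, and 43 of them were listed in both libraries. The samples were 2 native RNA libraries from day 6 mouse retinal organoids, which are eye-like tissue aggregates grown from stem cells. Both came from the wild-type Rx:GFP line, whose fluorescent protein reports the eye-field gene Rx (Rax), and both were cultured with 0.1 µM AGN for 6 days. They form 1 group with n = 2, and no untreated or mutant organoids were analysed here. The labels do not say whether the libraries came from separate cultures, so the spread between them may be technical.

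In the nucleolus, ribosomal RNA is transcribed as a long precursor, modified by small nucleolar ribonucleoproteins, cleaved, and folded into the small and large subunits. Box C/D particles guide ribose methylation and box H/ACA particles guide pseudouridylation. Growing progenitor cells make many ribosomes, and the factors' own mRNAs can carry N6-methyladenosine (m6A) like other mRNAs. METTL3 is the enzyme that places this mark, and the study concerns its role in early retinal development.

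Each listed position carries a motif of 5 bases, and these are the sequences on which every value below rests. They are written 5′ to 3′ in DNA letters, as deposited, with the central adenosine, the base that m6A modifies in this context, in capitals. Which base of the motif the listed position marks is not stated. The motif ending in A reads ggAca and had the highest median fraction in these libraries. Another motif with the same start ends in T and reads ggAct. The form that ends in C reads ggAcc. The only motif that starts with A reads agAct. They are called by these letters in capitals from here on.

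The measured value was the fraction modified, a number from 0 to 1 that the authors deposited per position together with its coverage, the number of reads over it. The denominator of the fraction is not given, so no read-level interval was set. It was not always the coverage, as 0.4167 at 21 reads (Nop9, position 1072, replicate 1) matches no whole number of those reads. Read numbers below are coverage, and fewer reads may lie behind a fraction. No unmodified control was read here, so words such as low, high or modified refer to the listed fraction only. A site was a listed position with at least 20 reads in its library, and a shared site had at least 20 reads in both. The listed positions had a median coverage of 10 reads in replicate 1 and 12 in replicate 2. Of the 8 retinal progenitor markers 7 were listed in each library, while none of the 4 pluripotency, 3 mesoderm or 3 endoderm markers was listed in either. Of the 4 pigment epithelium markers 1 and 3 were listed, with at most 6 and 14 reads, and of the 4 neuronal markers 1 was listed, with 11 and 17 reads. The tables do not tell an unexpressed gene from one without these motifs, and in bulk organoids fewer cells of a type cannot be told apart from less RNA per cell.

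Replicate 1 held 56 sites in 20 members and replicate 2 held 143 sites in 37. A total of 43 sites in 18 genes were shared. This was 76.8% of the member sites of replicate 1 (95% Wilson interval 64.2% to 85.9%, counting error only) and 30.1% of those of replicate 2 (23.2% to 38.0%). Over all genes the shares were 80.8% and 32.2%. A further 18 genes had sites in replicate 2 only, Bop1 had sites in each library at different positions, and Gnl3 had a site in replicate 1 only. The remaining 12 members (Gnl2, Gnl3l, Nol9, Nol10, Rrp1b, Rrp8, Rrp12, Rrp36, Utp14a, Utp14b, Utp20 and Utp25) had no position above 11 reads in replicate 1 or 19 in replicate 2, so their methylation could not be read at this depth. Per gene with a site, the members had a median of 2 sites in replicate 1 and 4 in replicate 2, beside 2 and 3 over all genes.

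The abundant nucleolar proteins included the deepest member. Npm1 (chromosome 11, 33102287 to 33113206; gene intervals here are the deposited ones, and the tables name no build) encodes nucleophosmin, a chaperone of ribosomal particles and histones. Its GGACA at position 567 of transcript ENSMUST00000075641.9 had a fraction of 0.659 in replicate 1, from 564 reads, and 0.580 in replicate 2, from 1196 reads. The mean was 0.620 ± 0.0556 (SD, n = 2). The Npm1 fraction was thus intermediate at this site in both libraries. Ncl (chromosome 1, 86272441 to 86287122) encodes nucleolin, which binds nascent ribosomal RNA. Its GGACT at position 2345 had fractions of 0.0400 and 0.0452 over 89 and 265 reads. The GGACA at position 2395 had 0.985 and 0.980 over 88 and 262 reads. These neighbouring sites lay at opposite ends of the scale in both libraries, and the gap between them was far larger than the replicate spread of either. The AGACT at position 2434 differed between libraries, with 0.100 over 25 reads and 0.366 over 73 reads. Coverage dropped at that position in both libraries, from 88 to 25 and from 262 to 73 reads. Npm3 (chromosome 19, 45736173 to 45738030), a relative of nucleophosmin, had a GGACA at position 714 with only 0.0789 and 0.100 over 59 and 100 reads.

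The box C/D proteins were read at 5 shared sites. Fbl (chromosome 7, 27869135 to 27878694) encodes fibrillarin, the methyltransferase of these particles. Its GGACT at position 740 had 0.0877 and 0.130 over 133 and 262 reads, and its GGACA at position 892 had 0.353 and 0.340 over 135 and 270 reads. Both sites were thus low to intermediate, and the libraries differed by less than 0.05 at each. Nop56 (chromosome 2, 130116350 to 130121233), a scaffold protein of the particle, had a GGACA at position 492 of ENSMUST00000103198.10 with 0.571 and 0.591 over 21 and 50 reads. Its GGACC at position 1794 had 0.588 (31 reads, replicate 1) and 0.292 (76 reads, replicate 2), so its level is uncertain. Nop58 (chromosome 1, 59724130 to 59758203), the partner scaffold, had a GGACT at position 979 with 0.294 and 0.230 over 28 and 103 reads. A GGACA at position 1373 of Nop58 had 0.926 over 103 reads in replicate 2, the deepest member site seen in that library only, and was not listed in replicate 1.

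The box H/ACA proteins were read at 5 shared sites with mean fractions from 0.470 to 1. Dkc1 (chromosome X, 74139460 to 74153383) encodes dyskerin, the pseudouridine synthase. Its GGACT at position 2751 of ENSMUST00000033776.14 had a fraction of 1 in both libraries, over 28 and 66 reads. The GGACA at position 1725 had 0.833 and 0.807 over 20 and 52 reads. At the GGACA of position 2517 the libraries disagreed most among the 43 shared member sites, with 0.85 over 28 reads and 0.475 over 65 reads. Dkc1 also had 3 sites in replicate 2 only, and these were lower. The GGACT at position 513 had 0.182, the GGACC at 524 had 0.24 and the GGACT at 851 had 0.0909, over 32 to 35 reads. With such sites counted, the median fraction of the box H/ACA genes in replicate 2 was 0.4 over 10 sites, beside 0.675 at the 5 shared ones. Nop10 (chromosome 2, 112092271 to 112093614), a small structural subunit, had a GGACA at position 171 with 0.678 and 0.675 over 210 and 293 reads. Nhp2 (chromosome 11, 51510562 to 51514541), an RNA-binding subunit, had an AGACT at position 550 with 0.473 and 0.467 over 128 and 189 reads. At both of these deep sites the libraries differed by less than 0.01. Gar1, the remaining core subunit, had 2 sites in replicate 2 only, a GGACA with 0.333 over 36 reads at position 679 and a GGACT with 0.207 over 34 reads at position 1214. In replicate 1 the GGACA had 0.857 over 15 reads.

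Among small subunit assembly factors, 16 sites in 5 genes were shared. Imp3 (chromosome 9, 56844759 to 56845682) encodes a protein of the U3 particle, which directs early cleavage of the precursor. Its GGACA at position 275 had 0.937 and 0.972 over 68 and 86 reads. Its neighbouring GGACT sites at positions 500 and 518 had fractions near 0. Position 500 had 0.0690 and 0.0448 over 71 and 89 reads, and position 518 had 0.0536 and 0.0274 over 72 and 89 reads. The GGACT at position 683 of the same transcript had 0.642 and 0.420 over 75 and 90 reads. So 3 sites of the same motif on 1 mRNA spanned from near 0 to about the middle of the scale, and the uppermost of them was above the others in each library.

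Utp3 (chromosome 5, 88702321 to 88703949), a processome protein, held the highest mean fraction among the 18 members with a shared site, 0.992 ± 0.0110 (SD, n = 2) over its shared sites. Its GGACA at position 1023 had 1 and 0.969, and its GGACT at position 1383 had 1 in both, over 22 reads in replicate 1 and 38 and 42 reads in replicate 2. Utp3 did not have high fractions throughout. In replicate 2 its GGACC at position 512 had 0.182 and its GGACT at position 560 had 0.0417, each over 28 reads. Utp4 (chromosome 8, 107620268 to 107649720), a protein that acts early in precursor transcription, had a GGACA at position 1974 with 0.158 and 0.2 over 28 and 52 reads.

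Nop9 (chromosome 14, 55983150 to 55992957), which binds the small subunit precursor, had 5 shared sites over 20 to 23 reads in replicate 1. The uppermost was a GGACT at position 2007 with 0.8 and 0.633, and the lowest a GGACT at position 791 with 0.105 and 0. An AGACT at position 1072 had 0.417 over 21 reads and 0.167 over 34 reads. Rrp7a (chromosome 15, 82997634 to 83007002), another processome protein, had 4 shared sites between positions 1463 and 1630. They had 27 reads each in replicate 1 and 72 or 73 in replicate 2. Their fractions in replicate 2 lay close together, from 0.385 to 0.481. In replicate 1 they were further apart. The AGACT at position 1584 had 0.154 there and 0.385 in replicate 2, and the GGACT at position 1630 had 0.632 there and 0.393 in replicate 2.

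Large subunit assembly factors had 12 shared sites in 4 genes. Nip7 (chromosome 8, 107783509 to 107787563), needed for maturation of the large subunit RNA, was read at 65 to 71 reads in replicate 1 and 116 to 127 in replicate 2. The GGACA at position 145 of ENSMUST00000034392.12 had 1 in both libraries and that at position 472 had 0.824 and 0.846. Another GGACA, at position 682, had only 0.265 and 0.181, and the GGACT sites at positions 639 and 1047 had 0.265 and 0.262, and 0.122 and 0.192. Sites of the same motif on this transcript thus ran from a fraction of 1 to low fractions. The mean over the gene was 0.495 in replicate 1 and 0.496 in replicate 2.

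Rrs1 (chromosome 1, 9615633 to 9617680), which helps to bring 5S RNA into the large subunit, had 4 shared sites over 20 to 30 reads in replicate 1. Its GGACC at position 1231 had 0.684 and 0.704, above the GGACC at position 1071 with 0.2 and 0.0435. Nop53 (chromosome 7, 15670108 to 15679999), which recruits the RNA exosome, had a GGACA at position 1328 with 0.739 and 0.476 over 31 and 58 reads, and a GGACC at position 995 with 0.0952 and 0.108. Pes1 (chromosome 11, 3913975 to 3930004), which acts with Bop1 in a shared complex, had a GGACT at position 1847 with 0.0667 and 0.125 over 20 and 70 reads. On another Pes1 transcript, a GGACA at position 1816 had a fraction of 1 in both libraries, but only 8 reads in replicate 1 beside 25 in replicate 2.

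**Figure D1:**
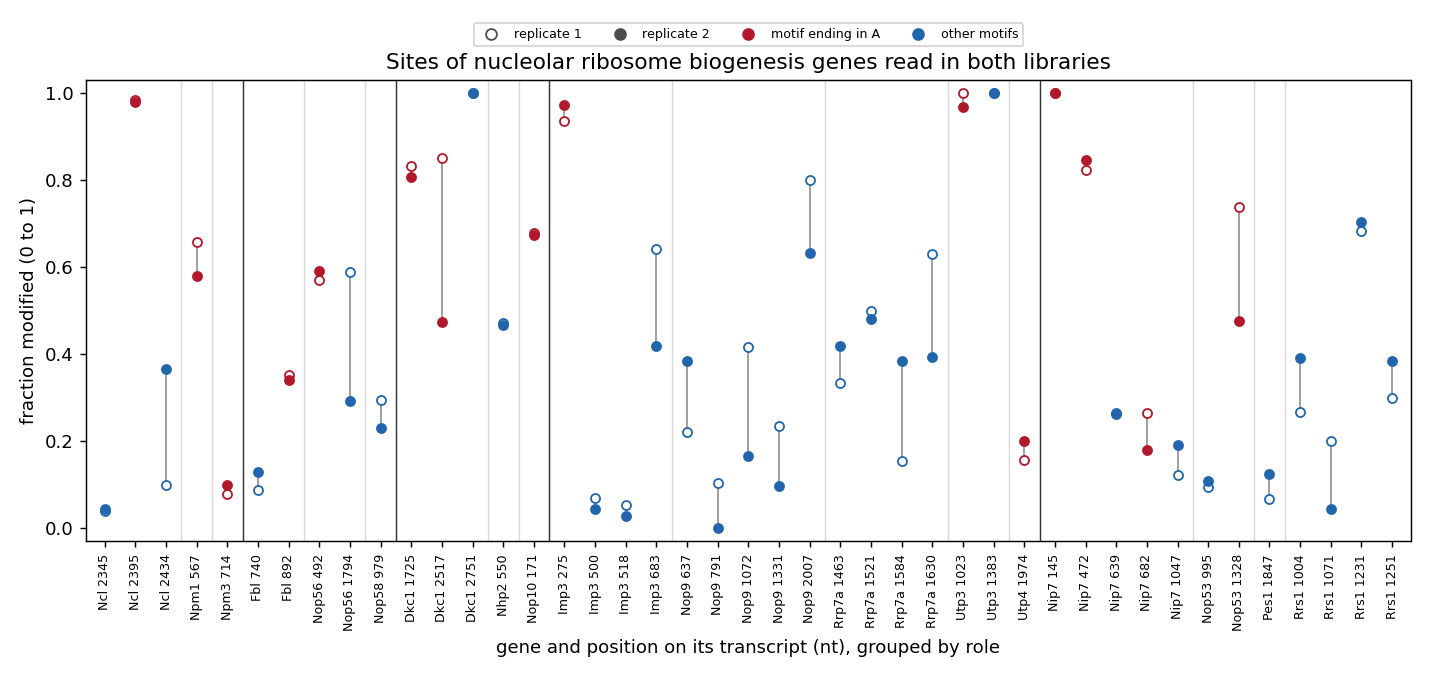
Fraction modified (y axis, 0 to 1) at the 43 shared member sites (x axis, gene and transcript position in nt, grouped by role with dark dividing lines). Open points are replicate 1 and filled points replicate 2, joined by a line; red marks the motif ending in A and blue the other motifs. Sites at 1 in both libraries lie in Dkc1, Utp3 and Nip7.

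The 43 shared sites had median fractions of 0.353 (replicate 1) and 0.385 (replicate 2), a mean of 0.369 ± 0.0224 (SD, n = 2). Over all 5221 shared sites of the series it was 0.375 and 0.362. A fraction of at least 0.8 in both libraries was found at 8 member sites (18.6%) in Dkc1, Imp3, Ncl, Nip7 and Utp3, against a background of 17.1% of all shared sites. A fraction of at most 0.1 in both was found at 4 member sites (9.30%), in Ncl, Imp3 and Npm3, against 10.1%. Both shares lie near the background. A fraction of exactly 1 in both libraries was listed at 3 member sites (6.98%), beside 1.02% of all shared sites. Of these, the sites in Dkc1 and Utp3 were 2 of the 7 shared GGACT sites in the whole series with that value (background among GGACT sites 0.564%). No test was run on these counts, and sites of 1 transcript share reads. The background was not matched for coverage. In replicate 1 these Dkc1 and Utp3 sites had 28 and 22 reads. The median coverage in that library was 28 at the shared member sites and 36 over all shared sites.

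By motif, 18 shared member sites in 11 genes were GGACT (41.9%), 15 in 12 genes GGACA (34.9%), 6 GGACC (14.0%) and 4 AGACT (9.30%). Over all shared sites GGACT made up 23.8% and GGACA 38.3%. In replicate 2 alone, 48 of the 143 member sites were GGACT (33.6%), beside 24.2% of all sites of that library. The median fraction at GGACA was 0.739 in replicate 1 and 0.591 in replicate 2 for the members, and 0.688 and 0.667 for other genes. At GGACT it was 0.250 and 0.246, beside 0.267 and 0.250. Over all sites of replicate 2, the median at GGACA was 0.511 at 52 member sites and 0.667 over all genes, and at GGACT it was 0.215 and 0.230. The gap between GGACA and the other motifs among members was 0.473 in replicate 1 and 0.262 in replicate 2, and over all shared sites it was 0.438 and 0.427 (exact paired permutation test, two-sided p = 0.5 for each, the smallest value that 2 replicates allow). When members and other genes were compared within motif, the members' difference was 0.0245 in replicate 1 and -0.000426 in replicate 2, a mean of 0.0120 with an SD of 0.0176 (n = 2), so within the spread between replicates. Both this sign and this call were lost under other coverage minimums. The difference was -0.0667 with an SD of 0.0151 (n = 2) without a minimum, over 142 shared member sites. It was -0.0546 with an SD of 0.0221 (n = 2) with a minimum of 50 reads, over 17. Both values lay further from 0 than their SD, with no test. That SD is the spread of 2 libraries read at the same sites. It does not measure the uncertainty from having few member sites.

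**Figure D2:**
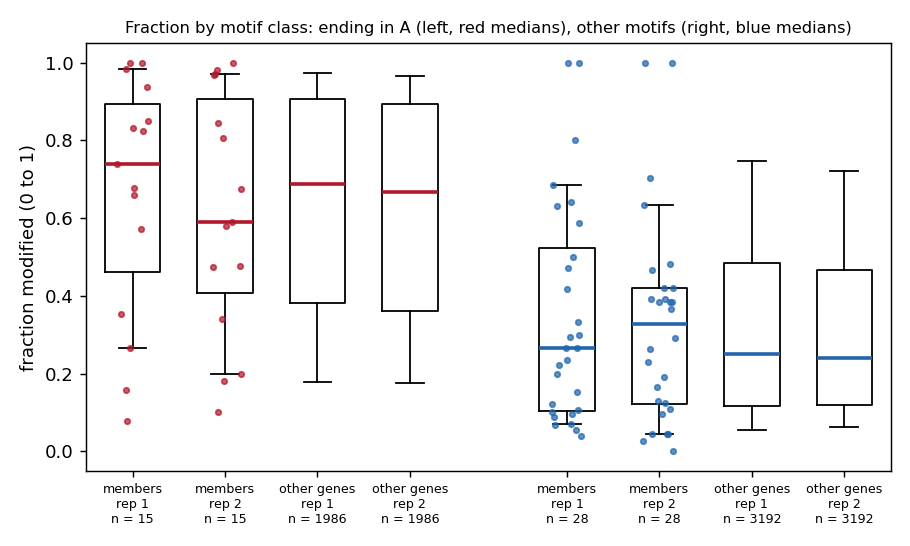
Fraction modified (y axis) at shared sites of members and of other genes in each replicate, for the motif ending in A (left) and the other motifs (right). Boxes show the quartiles and median, whiskers the 10th and 90th percentiles, and points the single member sites; the member medians fall inside the boxes of the other genes.

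Sites of GGACA and of GGACT each covered nearly the whole scale. The ranges of the mean were narrower at the 4 AGACT sites (0.233 to 0.470) and the 6 GGACC sites (0.102 to 0.694). Among the 15 member GGACA sites the mean of the replicates ran from 0.0895 in Npm3 to 1 in Nip7, and among the 18 GGACT sites from 0.0405 in Imp3 to 1 in Dkc1 and Utp3. Npm3, Utp4 and the Nip7 site at 682 were GGACA sites at 0.265 or less in each library. Of all listed member sites, 9 pairs lay within 20 nt of each other on 1 transcript, and 4 of them had the same motif. The closest pair with values from both libraries was in Nob1, the nuclease that forms the end of the small subunit RNA. Its GGACA sites at positions 1577 and 1583 had 0.556 and 0.133 over 17 reads each in replicate 1, and 0.3 and 0.0333 over 31 reads each in replicate 2. The upstream site was above the downstream one in both libraries.

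The site with the highest fraction was at different places on different member transcripts. Of 21 member transcripts with at least 3 sites in replicate 2, the highest fraction was at the last site in 7 (33.3%; background 20.8%), at the first in 6 (28.6%; background 24.6%) and between them in 8. The background was 2589 transcripts of all genes with as many sites, and the difference was not tested. It was the last in Dkc1, Utp3, Utp4, Utp6, Nop9, Bysl and Nol12, and the first in Nip7, Imp3, Imp4, Nol6, Nop2 and Nop53. Placement in coding sequence or untranslated regions was not analysed here.

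The typical member site had closer fractions in the libraries than the typical site of the series, while more of the member sites lay far apart, and neither difference was tested. The median absolute difference was 0.0427 at the 43 member sites and 0.0517 over all shared sites. Across the 43 sites Pearson's r was 0.916 and Spearman's rho 0.911, beside 0.948 and 0.937 over all shared sites, given as a description across sites that share libraries. The median difference, replicate 2 minus replicate 1, was -0.0034 with an SD of 0.132 across sites, and the SD over all shared sites was 0.0996. Replicate 2 gave the higher fraction at 17 sites and the lower one at 23 (53.5%; background 52.3%), and 3 sites were equal. The fractions differed by more than 0.2 at 8 member sites in 7 genes (18.6%), against a background of 5.94%. The 6 sites that were lower in replicate 2 were those described above in Dkc1, Imp3, Nop53, Nop56, Nop9 and in Rrp7a at position 1630. Those in Ncl at 2434 and in Rrp7a at 1584 were higher. By coverage the shares of the members were uneven and rest on few sites. With 20 to 29 reads in the shallower library 5 of 22 member sites differed by that much (22.7%; background 9.57%), with 30 to 49 reads 2 of 4 (50%; background 7.21%), and with 50 or more 1 of 17 (5.88%; background 1.09%). The last was the GGACT at position 683 of Imp3. The share of the members was above the background in each coverage range, with no test.

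**Figure D3:**
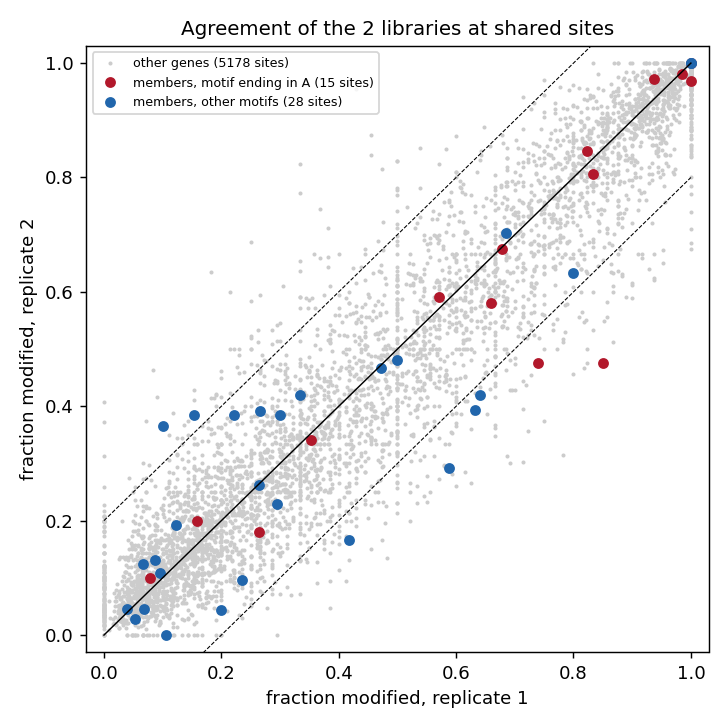
Fraction modified in replicate 1 (x axis) and replicate 2 (y axis) at all shared sites, with other genes in grey and members in red (motif ending in A) and blue (other motifs). The solid line marks equality and the dashed lines a difference of 0.2; 8 member sites lie outside the dashed lines.

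Replicate 2 was the deeper library, with a median of 1.86-fold the coverage of replicate 1 at the member sites and 2-fold over all shared sites. The ratio differed among members, from 1.24 in Imp3 to 3.68 in Nop58. It was a median of 1.40 at the 9 member sites on transcripts whose last listed position was 1000 nt or less, 1.87 at 23 sites where it was over 1000 and up to 2000 nt, and 2.32 at 11 sites where it was over 2000 nt. The same order was seen over all shared sites, with 1.67, 1.99 and 2.30, with no test of the members against them. 

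Replicate 2 alone held 100 member sites. Replicate 1 listed 71 of them at lower depth (median 12 reads) and did not list the other 29 (29%), beside 37.2% of the 10991 sites of this kind over all genes. The fractions of the 100 member sites ran from 0 to 1 with a median of 0.333. Where both libraries listed the position, the fractions differed by a median of 0.119, beside 0.0427 at shared sites. In replicate 2, 22 of the 143 member sites had a fraction of at least 0.8 (15.4%), against a background of 17.6%. Small subunit factors held 14 of these 22, but also 76 of the 143 sites. Large subunit factors held 4 of the 22 and 44 of the 143. GGACA made up 26 of the 76 and 16 of the 44, and the roles were not compared by a test.

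The small subunit factors read only in replicate 2 were led by Nol6 and Utp6 with 8 sites each and Nob1 with 7, followed by Bysl and Utp15 with 6, Imp4 and Utp23 with 5, Nop14, Rrp9, Utp11 and Utp18 with 2, and Nol11 with 1. In Imp4, a partner of Imp3 in the U3 complex, the GGACA at position 677 had 1 over 45 reads, and 1 over 15 reads in replicate 1. The GGACA at position 1119 of Imp4 had 0.464 over 47 reads and 0.583 over 16. Utp15 had a GGACA at position 2081 with 1 over 27 reads and at position 1664 with 0.955 over 25. Its GGACA sites at positions 1775 and 1893 had 0.4 and 0.467, its GGACT at 2263 had 0.5 and its AGACT at 1872 had 0.188. In replicate 1 positions 2081, 1664 and 1872 had 1, 0.8 and 0.5 over 5 or 6 reads. In Utp6 the last site, a GGACA at position 2881, had 1 over 21 reads, and the first, a GGACT at position 151, had 0.0526 over 22 reads. All values of this paragraph that come from replicate 1 rest on fewer than 20 reads.

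Among large subunit factors read only in replicate 2, Rrp15 had 7 sites, Nop2 6, Nol12 5, Rrp1 2 and Nop16 1. Nop2, an RNA methyltransferase, stayed between 0.0645 and 0.389 at all 6 sites. Bop1, the partner of Pes1, had 4 GGACA sites in replicate 2 whose fractions lay close together, from 0.389 to 0.440 over 28 to 37 reads. Nol12 had a GGACT at position 927 with 0.880 over 34 reads, and 0.818 over 17 reads in replicate 1. The 2 Rrp1 sites, an AGACT at position 1844 of one transcript and an AGACT at position 1710 of another, had 0.586 and 0.567 over 43 and 45 reads. They may be the same base counted on both transcripts. After Nop58, the deepest sites of this kind were a GGACA at position 1416 of Pes1 with 0.170 over 57 reads and an AGACT at position 657 of Nop16. The latter had 0.482 over 48 reads, and 0 over 12 reads in replicate 1.

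**Figure D4:**
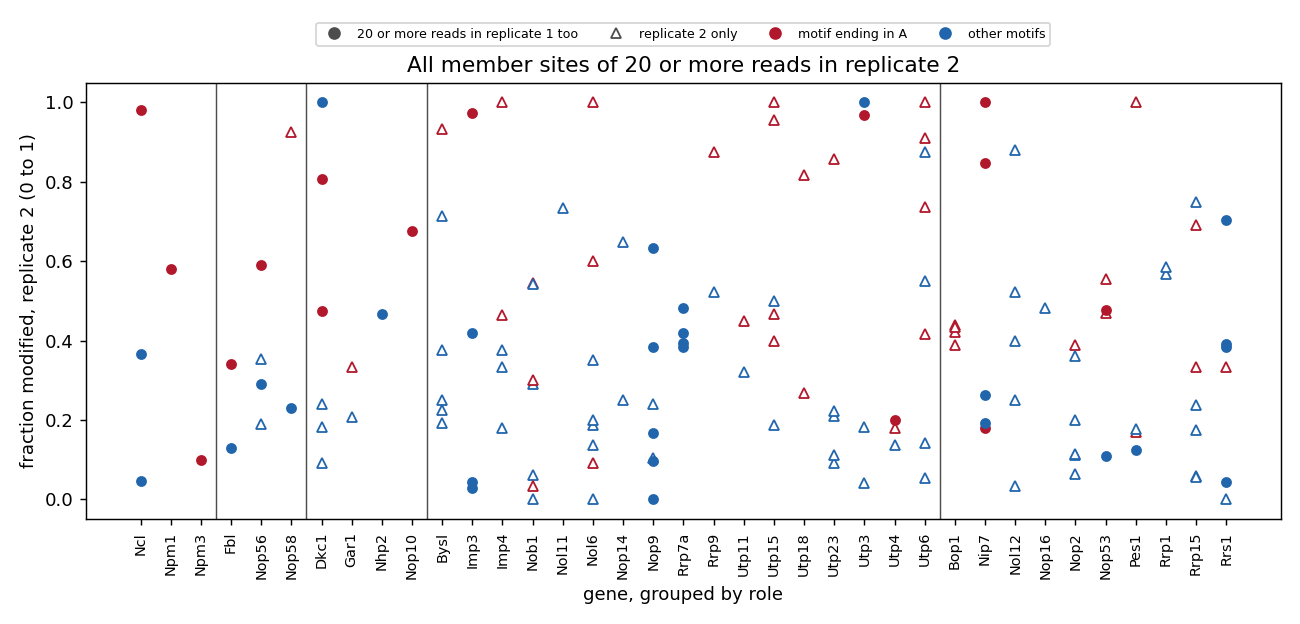
Fraction modified in replicate 2 (y axis) at all 143 member sites of that library, by gene (x axis, grouped by role). Filled circles were shared with replicate 1 and open triangles were read at 20 or more reads in replicate 2 only; red marks the motif ending in A. Fractions cover the whole scale, from 0 to 1 within Nol6 alone.

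The 13 member sites of replicate 1 that were not shared are named although the rule for naming did not cover them, after their values were seen. None of them was listed in replicate 2 at any depth, although that library was deeper. The same held for 99.1% of the 1242 such sites over all genes. Npm1 had an AGACT at position 236 with 0.646 over 406 reads, Nhp2 a GGACC at position 383 with 0.141 over 125 reads, and Ncl an AGACT at position 2265 with 0.411 over 88 reads. The rule by which a position was listed is not given in the sources used here, so their absence from replicate 2 was not read as a fraction. Gnl3 (chromosome 14, 30734390 to 30741109), which encodes nucleostemin, was listed at a single GGACA, position 1317, with 1 over 31 reads. Of the rest, Nop9 held 4 and Nop56 held 2, and Bop1, Pes1 and Utp4 held 1 each, over 21 to 24 reads.

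Several members also carry small nucleolar RNA genes within their own span, a trait that the rule did not use. In the RefSeq list for GRCm38.p6, all 50 member symbols were found, and 6 of them (12%) contained a small nucleolar RNA gene: Ncl, Nop56, Nop58, Dkc1, Nop53 and Gnl3. Among 8006 other listed protein-coding genes the share was 2.49%. Nop58 contains Snord11 and Snord70, Nop56 contains Snord57 and Snord110, Ncl contains Snord82 and Snora75, Gnl3 contains Snord19 and Snord69, and Nop53 contains Snord23. No difference in fraction between these and the other members was tested.

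Other ribosome biogenesis genes were then read from a list. Of 75 gene symbols that the rule did not match, 71 were listed in a library, 53 had a site in replicate 2 and 27 had a shared site. A gene deposited under another symbol would be missed. Their 79 shared sites had a median fraction of 0.379 in replicate 1 and 0.357 in replicate 2, and 14 of them (17.7%) had at least 0.8 in both libraries, near the background of 17.1%. Nsa2, a large subunit factor, was the deepest, with a GGACA at position 582 at 0.986 and 0.982 over 149 and 241 reads. Emg1, a ribosomal RNA methyltransferase, had a GGACA at position 426 with 1 and 0.956 over 76 and 103 reads, and a GGACT at position 904 with 0.0972 and 0.113. Rsl1d1 had GGACT sites at positions 1698 and 1775 with 0.886 and 0.852, and 0.0926 and 0.108. Brix1, which joins the early large subunit, had 2 shared sites and both were low, with 0.0606 and 0.0897 at position 805 and 0.133 and 0.140 at position 941.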

How the data were processed

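Poly(A) RNA of 2 libraries was sequenced directly with the RNA002 chemistry, 1 flow cell each, per the labels' protocols. The authors deposited, per library, a plus and a minus table with a fraction modified (a fraction from 0 to 1) and a coverage (a whole-number read count) for each transcript position. Both quantities are named per the file headers. No position under 5 reads was listed. The base caller, aligner and modification caller are not given in the sources used here. The build mm10 is named in the submitters' processing notes, yet 1 of 50 members had a deposited start within 1000 bases of RefSeq GRCm38.p6, so coordinates are printed as deposited. Member names occurred at 0 positions of the minus tables, which were not used further.

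Sites with at least 20 reads were matched on transcript and position (Python 3.11.15, pandas 2.3.3, SciPy 1.17.1). Means over replicates carry the SD (n = 2). Functions were tested on simulated data. Printed by rule were shared member sites with 50 reads in both libraries, the highest and lowest sites of genes with 3 or more, sites over 0.2 apart, and sites at 0.9 or more or 0.05 or less in both; of replicate 2 only sites, the 3 deepest and those with 100 reads. Other printed sites were chosen after their values were seen. The members and lists were chosen with earlier results of these data known.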

Additional observations from a re-analysis of the deposited data

How the results depend on the processing

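Counts followed the coverage minimum. Without one, members had 194 sites in replicate 1 and 245 in replicate 2, of which 142 sites on 42 genes were shared, with 20 sites at 0.8 or more in both and 34 that differed by more than 0.2. With 50 reads these numbers were 20, 34, 17, 8, 4 and 1. The median fraction was 0.323 without a minimum. The median over genes of each gene's mean fraction, in which every gene weighs the same, was 0.406. The gap of GGACA to other motifs, 0.368 as the mean of replicates, was 0.301 without a minimum and 0.543 with 50 reads. The difference of members from other genes within motif, 0.0120 as the mean of replicates, was -0.0667 without a minimum and -0.0546 with 50 reads, both beyond their SD between replicates. This SD leaves out the spread among member sites, and the cause was not tested. With 1 transcript per gene 43 sites stayed shared, matching within 5 nt also gave 43, and means within motif gave 0.0104. Without each replicate the median fraction ran from 0.353 to 0.385, the gap from 0.262 to 0.473 and the motif-matched difference from -0.000426 to 0.0245; with n = 2 such values cannot move by more than 1 SD. Leaving out Nol3, Nol4 and Nol4l was not run, as none was listed. The count of differences over 0.2 was added after seeing the data. No replicate block could be fitted between groups, as the samples form 1 group; the paired permutation test compared motifs within each library.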
